A study of Mus musculus with 36 samples.

Results

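The genes described here are those of antigen presentation by MHC class II molecules, namely H2-Aa, H2-Ab1, H2-Eb1, Cd74 and Ciita, and markers of the macrophages at the borders of the brain, namely Mrc1, Cd163, Lyve1, F13a1 and Pf4. These 10 genes were taken by name from the 55450 genes counted at 1 month, the 53379 at 2 months and the 54146 at 3 months, and each had one row with the same identifier at every age. Cerebellum (Cb) and the combined forebrain and midbrain (F/M) were sampled in Tpp1-/- mice, a targeted mutant line that lacks the lysosomal protease TPP1, and in control siblings, at ages of 1, 2 and 3 months. Each group of age, region and genotype had 3 libraries and there were 36 in all. By their labels the controls were wild type, except that replicate 3 of 1 month was Tpp1+/- in F/M and in Cb. The line is a model of the childhood lysosomal storage disease CLN2. Each region was taken whole, so blood vessels, meninges and choroid plexus may have come with it.

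MHC class II molecules are pairs of an alpha and a beta chain that show peptides from the endosome to CD4 T cells. H2-Aa and H2-Ab1 encode the chains of I-A, H2-Eb1 encodes the beta chain of I-E, Cd74 encodes the invariant chain that guards the groove until the peptide is loaded, and Ciita encodes the coactivator that switches these genes on. In the healthy brain, class II is found mainly on macrophages and dendritic cells of the meninges, perivascular spaces and choroid plexus, and little of it on microglia. Border macrophages carry the mannose receptor (Mrc1), the haemoglobin scavenger receptor (Cd163) and, on a subset with little class II, the hyaluronan receptor (Lyve1). They also transcribe F13a1, a coagulation factor subunit, and Pf4, a chemokine better known from platelets.

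The class II chain genes lie together on chromosome 17, with H2-Ab1 at 34257689 to 34269419, H2-Aa at 34282744 to 34287823 on the minus strand and H2-Eb1 at 34305867 to 34316674 of GRCm38. The other genes lie on chromosomes 2 (Mrc1), 5 (Pf4), 6 (Cd163), 7 (Lyve1), 13 (F13a1), 16 (Ciita) and 18 (Cd74). Promoters of class II genes carry a conserved module, the X and Y boxes, on which the CIITA coactivator is assembled. RefSeq promoter windows, which run from upstream of the start to just past it, were matched by symbol for 6 of the 10 genes (GRCm38.p6), and those of H2-Ab1, Cd74, Ciita and Lyve1 were not matched. Those of H2-Aa (chr17:34287774-34288073, minus strand) and H2-Eb1 (chr17:34305617-34305916, plus strand) are shown because their transcripts are compared throughout, with capitals for the Y box CTGATTGG and for TGACGTCA, a form of the X2 box, each searched on both strands:
H2-Aa: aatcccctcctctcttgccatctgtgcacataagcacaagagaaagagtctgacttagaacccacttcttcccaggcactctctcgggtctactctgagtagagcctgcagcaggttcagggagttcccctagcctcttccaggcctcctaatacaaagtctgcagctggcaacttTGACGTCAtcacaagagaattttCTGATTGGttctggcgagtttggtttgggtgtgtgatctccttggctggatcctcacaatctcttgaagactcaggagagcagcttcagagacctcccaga
H2-Eb1: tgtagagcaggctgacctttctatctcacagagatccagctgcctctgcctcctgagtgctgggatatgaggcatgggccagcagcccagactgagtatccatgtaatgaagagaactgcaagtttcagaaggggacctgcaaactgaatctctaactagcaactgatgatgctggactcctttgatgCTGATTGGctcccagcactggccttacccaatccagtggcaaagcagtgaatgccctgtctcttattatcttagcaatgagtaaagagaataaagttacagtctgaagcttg
The Y box ended 44 bases before the start of H2-Aa and 55 bases before that of H2-Eb1. It was present in 4.1% of 32851 promoters of this length. TGACGTCA was found in H2-Aa, where it ended 67 bases before the start, and in 1.79% of all promoters, and these letters were not in the H2-Eb1 window.

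Totals ran from 10609896 to 29942380 counts per library. In each region and at each age Tpp1 counts were lower in every Tpp1-/- library than in every control library, 219 to 763 against 681 to 2435 overall. The sex labels went against the data: at 1 month all 12 libraries had 1652 to 3739 counts of the Y-linked gene Ddx3y and at most 8 of Xist, although 4 were labelled female, and at 3 months all 12 had at least 12199 counts of Xist and at most 1 of Ddx3y, although 8 were labelled male. Libraries of 2 months, all labelled male, had 853 to 3308 counts of Ddx3y. Of these, 3 Cb libraries also had 56 to 162 counts of Xist, namely control replicates 1 and 3 and Tpp1-/- replicate 1. Genotypes within an age were thus alike in sex by these genes, whereas age cannot be told apart from gene annotation, for 3 months against the other ages from sex by these genes, and for 2 months against the other ages from the strand setting of the read counting.

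The 10 genes were weakly expressed in these brains. Counts per library ran from 0 to 239, and levels are given as CPM, counts scaled to library size with TMM factors. In controls of 3 months, F/M libraries had 6.47 ± 0.12 CPM of Mrc1 (SD, n = 3), 3.14 ± 0.739 of Cd74, 3.06 ± 0.793 of F13a1, 2.96 ± 0.189 of Cd163 and 2.41 ± 0.149 of H2-Aa. The lowest were H2-Eb1 with 1.76 ± 0.357 CPM, Lyve1 with 1.18 ± 0.00567, H2-Ab1 with 1.14 ± 0.126, Pf4 with 0.492 ± 0.139 and Ciita with 0.229 ± 0.0372. Per kilobase of annotated exon the order was different, since the macrophage receptors have long transcripts. Cd74 led with 2.23 ± 0.524 CPM per kb, before H2-Eb1 with 1.49 ± 0.302, H2-Aa with 1.29 ± 0.0796 and Mrc1 with 1.02 ± 0.0188, where neither Cd74 and H2-Eb1 nor H2-Eb1 and H2-Aa differed beyond their spread (mean ± SD). H2-Ab1 (0.694 ± 0.0769 CPM per kb) and Pf4 (0.683 ± 0.193) came next, followed by Cd163 (0.542 ± 0.0347), F13a1 (0.455 ± 0.118) and Lyve1 (0.404 ± 0.00194). No neighbours in this run of 5 differed beyond their spread, and Ciita was last with 0.0240 ± 0.00391. The annotation of 1 month gives H2-Aa 3798 bases of exon in place of 1874 and also lengthens H2-Ab1, H2-Eb1 and Cd74, so levels per kb of these genes were not set across ages.

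**Figure D1:**
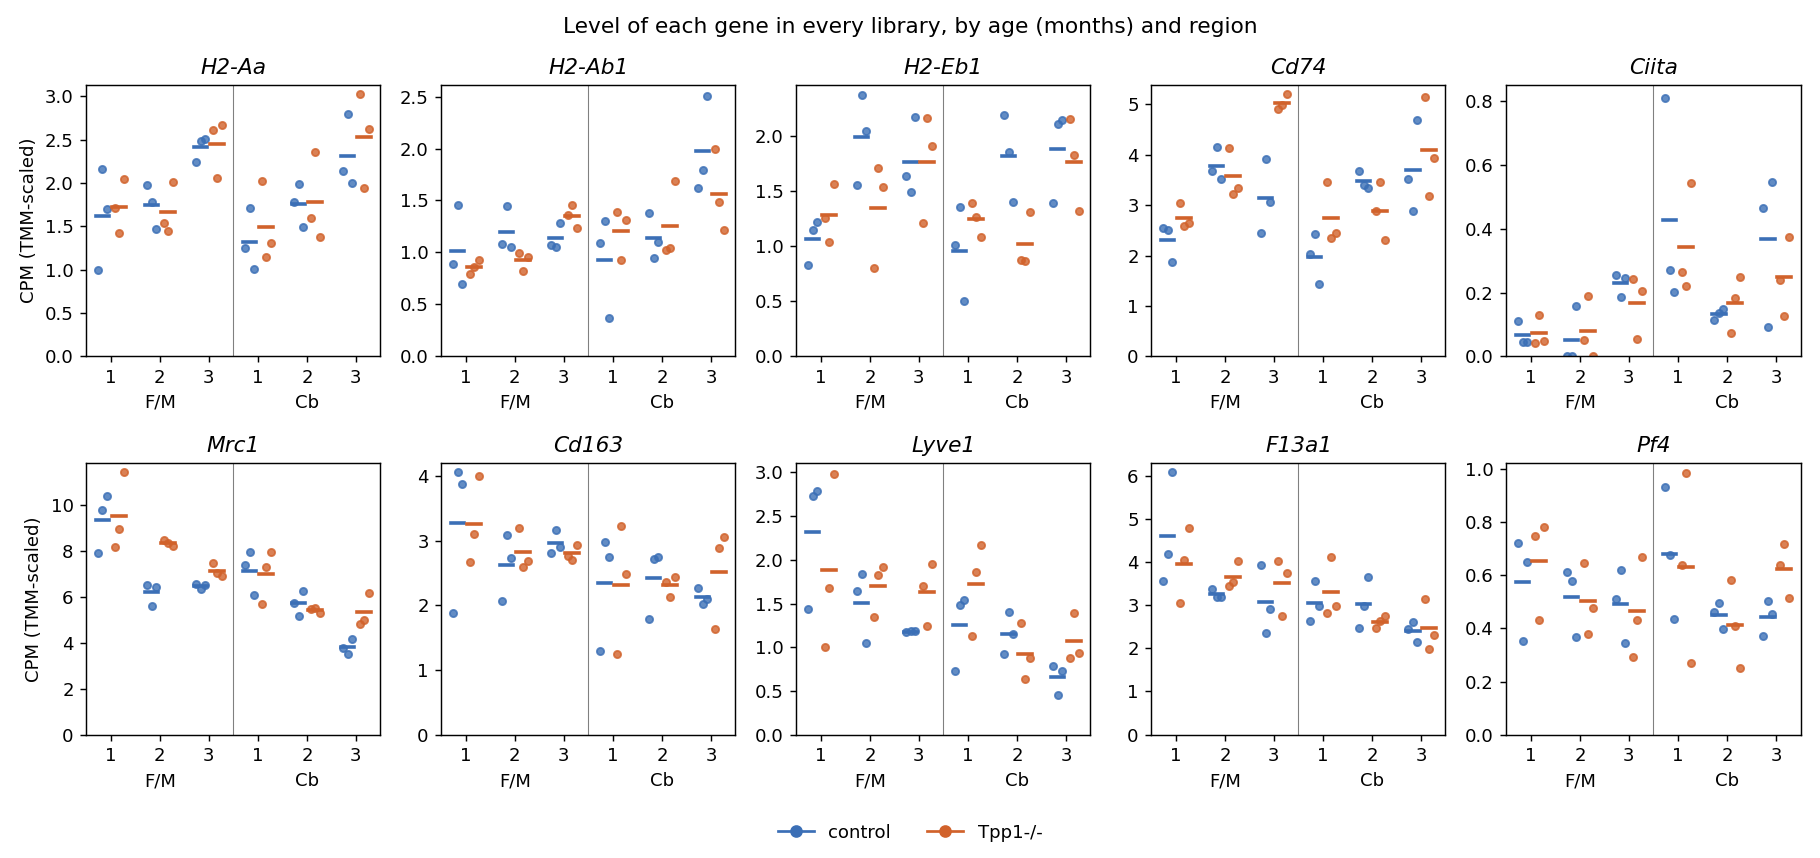
CPM of each gene (vertical axis, linear and from 0) in every library, by age in months and region (horizontal axis), with controls in blue and Tpp1-/- in orange. Points are the 3 libraries of a group and bars their mean. The genotypes overlap in most groups, while Mrc1 was higher in all 3 Tpp1-/- libraries of F/M at 2 and 3 months and of Cb at 3 months.

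The first question was whether loss of TPP1 changed these genes before and during disease. None of the 9 genes that had enough counts for the test was called at any age or in either region. A call needed a 1.5-fold change or more together with a Benjamini-Hochberg adjusted p below 0.1 in edgeR. DESeq2 and limma-voom also called 0 in each of the 6 comparisons. Ciita was below the count filter at every age. In whole tissue, fewer cells of a type and less RNA per cell cannot be told apart. At an unadjusted p under 0.05 there were 0, 2 and 1 genes in F/M by order of age, and 1, 1 and 2 in Cb, where 1.89%, 16.9% and 5.94% of all tested genes passed that threshold in F/M and 7.66%, 9.67% and 6.49% in Cb. Few genes of any kind were called. Of all tested genes the share was 0.0112% (F/M) and 0.0112% (Cb) at 1 month, then 0.737% and 2.05% for the mice of 2 months and 0.464% and 0.859% for those of 3 months, under 1 in 9 throughout. The interval of the fold change (95% confidence) lay within a 2-fold change either way for 40 of the 54 estimates.

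**Figure D2:**
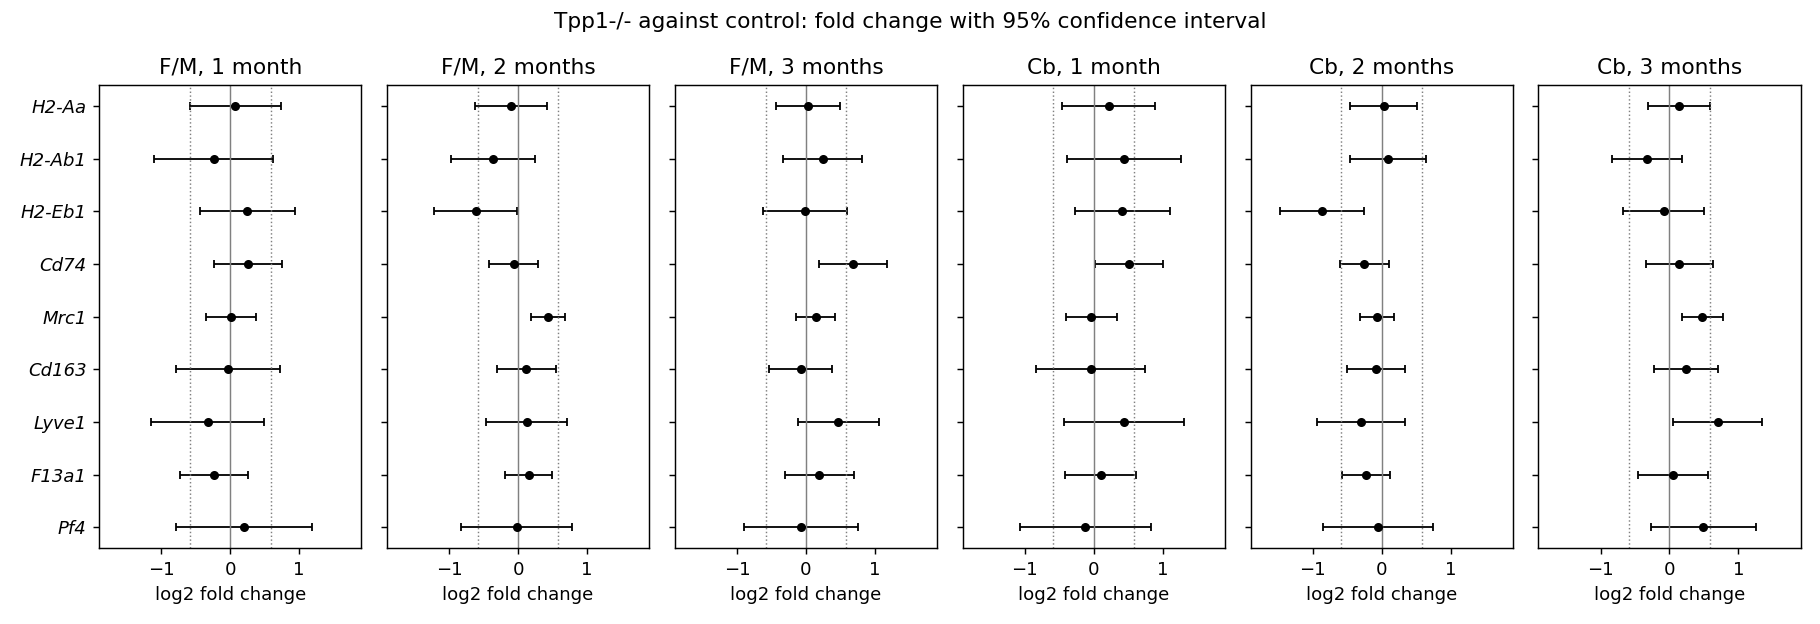
Log2 fold change of Tpp1-/- over control (horizontal axis) for the 9 tested genes, by region and age, with bars for the 95% confidence interval derived from the edgeR F test. Dotted lines mark a 1.5-fold change. Of the 54 intervals, 47 include 0, and the others belong to Cd74, H2-Eb1, Mrc1 and Lyve1.

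Among the class II genes, Cd74 came closest to a rise. At 3 months F/M libraries had 2.45, 3.92 and 3.06 CPM of Cd74 in controls and 4.90, 4.98 and 5.20 in Tpp1-/- mice. Every Tpp1-/- library was above every control library, with a log2 fold change of 0.69 ± 0.23 (SE), an interval of 1.14- to 2.27-fold and an adjusted p of 0.502. With only the 6 F/M libraries in the fit the adjusted p was 0.0195, in a range of 0.0195 to 1 over 19 alternatives. In Cb at 3 months the groups overlapped, at 3.53, 2.89 and 4.69 CPM in controls and 5.15, 3.17 and 3.94 in Tpp1-/- mice (log2 fold change 0.14 ± 0.22, adjusted p = 0.978). At 1 month Cd74 in Cb had 2.03, 2.43 and 1.44 CPM in controls and 3.45, 2.35 and 2.44 in Tpp1-/- mice, which also overlapped (0.51 ± 0.23, adjusted p = 0.63). In these libraries the summed level of 12 choroid plexus genes was 274 to 971 CPM in controls and 928 to 1369 in Tpp1-/- mice, that of 12 fibroblast genes 153 to 189 and 191 to 232, and that of 5 red blood cell genes 140 to 242 and 196 to 338. Only the fibroblast sums did not overlap, all of these genes were positive and 0 were called. Their part in the Cd74 values was not tested.

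H2-Eb1, the I-E beta chain, had lower values in Tpp1-/- mice at 2 months. In Cb it had 2.19, 1.85 and 1.40 CPM in controls and 0.873, 0.863 and 1.31 in Tpp1-/- mice, so that the groups did not overlap (log2 fold change -0.87 ± 0.29, interval 0.361- to 0.835-fold, adjusted p = 0.185). Without the low-count filter the adjusted p was 0.0548, in a range of 0.0548 to 0.485 over 18 alternatives. In F/M of the same age H2-Eb1 had 1.55, 2.37 and 2.04 CPM in controls and 0.797, 1.70 and 1.53 in Tpp1-/- mice, with overlap (-0.62 ± 0.29, adjusted p = 0.29). In the Cb libraries of 2 months the 7 monocyte and neutrophil genes summed to 6.67 to 10.9 CPM in controls and 1.82 to 4.72 in Tpp1-/- mice. The 6 B cell genes summed to 5.79 to 6.42 CPM against 3.13 to 4.66, and the 5 red blood cell genes, with overlap, to 95.9 to 214 against 90.3 to 129. Of the tested genes 3 of 4, 1 of 2 and 0 of 5 were called lower, all were negative, and their part was not tested. At 3 months H2-Eb1 had log2 fold changes of -0.02 ± 0.28 in F/M and -0.09 ± 0.27 in Cb.

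H2-Aa and H2-Ab1 encode the chains of I-A. At 3 months H2-Aa had 2.24, 2.49 and 2.51 CPM in F/M controls and 2.62, 2.06 and 2.67 in Tpp1-/- mice, and its interval there was 0.737- to 1.40-fold. Over the 6 comparisons H2-Aa ranged from a log2 fold change of -0.10 to 0.21 and H2-Ab1 from -0.37 to 0.44. H2-Ab1 libraries did not overlap in F/M at 2 months, with 1.08, 1.45 and 1.05 CPM in controls and 0.996, 0.82 and 0.956 in Tpp1-/- mice (-0.37 ± 0.29, adjusted p = 0.562). Of the 4 class II genes, the number with a positive estimate was 3 in F/M and 4 in Cb at 1 month (medians 0.16 and 0.43), then 0 and 2 at 2 months (-0.23 and -0.11) and 3 and 2 at 3 months (0.13 and 0.02).

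Of the border macrophage genes, Mrc1 was the most precisely measured. At 2 months F/M libraries had 6.54, 5.602 and 6.44 CPM of Mrc1 in controls and 8.47, 8.33 and 8.23 in Tpp1-/- mice. The groups were well apart and the log2 fold change was 0.43 ± 0.12, with an adjusted p of 0.076, but the 1.35-fold difference was under the minimum of 1.5, and its interval was 1.14- to 1.598-fold. With one library left out the adjusted p ran from 0.0409 to 0.30. The choroid plexus genes summed to 251 to 641 CPM in these controls and 551 to 743 in the Tpp1-/- libraries, and their part was not tested. In Cb of 2 months Mrc1 had 5.75, 5.15 and 6.24 CPM in controls and 5.49, 5.496 and 5.31 in Tpp1-/- mice (-0.07 ± 0.12). The difference between the regions in this effect was -0.50 ± 0.17 on the log2 scale, with an adjusted p of 0.177.

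At 3 months the estimate for Mrc1 was larger in Cb than in F/M, but the difference between the regions (0.34 ± 0.19, adjusted p = 1) was not called. Cb libraries had 3.76, 3.53 and 4.14 CPM of Mrc1 in controls and 4.83, 4.99 and 6.15 in Tpp1-/- mice, without overlap (0.48 ± 0.14, interval 1.13- to 1.71-fold, adjusted p = 0.28). In F/M the values were 6.57, 6.34 and 6.50 CPM in controls and 7.47, 7.03 and 6.89 in Tpp1-/- mice, also without overlap (0.14 ± 0.13, adjusted p = 1). Lyve1 did not overlap in either region. In Cb it had 0.789, 0.459 and 0.729 CPM in controls and 0.878, 1.40 and 0.939 in Tpp1-/- mice (0.70 ± 0.30, adjusted p = 0.701), and in F/M 1.17, 1.18 and 1.18 against 1.70, 1.24 and 1.95 (0.47 ± 0.28, adjusted p = 0.977). Pf4 in Cb had 0.371, 0.505 and 0.455 CPM in controls and 0.638, 0.72 and 0.516 in Tpp1-/- mice, which rests on 8 to 17 counts per library (0.49 ± 0.35, adjusted p = 0.933). Cd163 and F13a1 overlapped in both regions at 3 months.

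One Cb library of 3 months, Tpp1-/- replicate 1, stood apart from the others of its group. Its monocyte and neutrophil genes summed to 15.2 CPM against 2.03 and 2.53 in the others, its choroid plexus genes to 1750.4 against 849.5 and 879, and its microglial genes to 385 against 277 and 297. Its counts of Xist were 12199 against 36339 and 30808. It was the highest of its group for the 4 class II genes. Without it the log2 fold changes in Cb at 3 months were -0.06 for Cd74, -0.02 for H2-Aa, -0.54 for H2-Ab1 and -0.25 for H2-Eb1, and 0.55 for Mrc1 (adjusted p = 0.0796), 0.83 for Lyve1 (adjusted p = 0.234) and 0.48 for Cd163 (adjusted p = 0.184), and 0 genes were called. In the same fit, chosen after seeing the data, Ctss and Cd86 were called in both regions, microglial markers numbered 5 of 12 in Cb and 2 of 12 in F/M, and interferon gamma pathway genes 1 of 9 in Cb and 2 of 9 in F/M.

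Counted by libraries that do not overlap, 1 of 9 genes stood apart in F/M at 1 month (Cd74, higher in Tpp1-/- mice) and 0 in Cb, beside 14.8% and 7.97% of all tested genes. At 2 months 3 of 9 stood apart in F/M (Mrc1 and F13a1 higher, H2-Ab1 lower) and 1 in Cb (H2-Eb1, lower), beside 18.3% and 18.1%. At 3 months it was 3 in F/M (Cd74, Mrc1 and Lyve1) and 3 in Cb (Mrc1, Lyve1 and Pf4), all higher in Tpp1-/- mice, beside 24.1% and 8.67%. The median log2 fold change of the 9 genes at 3 months was 0.14 in F/M as in Cb, where that of all tested genes was -0.0026 and -0.0027. Without Cb Tpp1-/- replicate 1 the median of the same 9 genes in Cb turned to -0.02, with 4 of 9 positive in place of 7. This median pools 2 sets. With all libraries the 5 border macrophage genes had a Cb median of 0.48, 5 positive, and the 4 class II genes 0.02, 2 positive.

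Whether the effect of genotype differed between regions or ages was tested directly. None of the 9 genes was called for a difference in effect between the regions by edgeR, DESeq2 or limma-voom. At 1, 2 and 3 months, in that order, the shares of all tested genes were 0%, 2.97% and 0.00581%, and at an unadjusted p under 0.05 there were 0, 1 (Mrc1) and 0, beside 1.94%, 11.5% and 3.51% of all genes, so that 1 of 9 was near the background. In the model of all 36 libraries, 0 of 9 genes differed in their effect between 3 months and 1 month in F/M (0.153% of all genes) or Cb (0.458%), and 0 of 9 between 3 and 2 months in F/M (0.393%) or Cb (1.44%). Ciita also passed the count filter of this model, so 10 genes were tested and 0 called. Its estimates are not read at such low counts. The numbers at an unadjusted p under 0.05 were 0, 1 (Mrc1), 1 (Cd74) and 1 (Mrc1) of 9, beside 5.41%, 7.91%, 8.12% and 6.41% of all genes, again near the background. For Mrc1 in Cb the effect at 3 months exceeded that at 2 months by 0.55 ± 0.20 and that at 1 month by 0.52 ± 0.20 on the log2 scale (adjusted p = 0.378 and 0.455), and for Cd74 in F/M the effect at 3 months exceeded that at 2 months by 0.76 ± 0.30 (adjusted p = 0.443). The 2 comparisons of Mrc1 share the libraries of 3 months.

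Single genes that act with class II molecules were called at 3 months. Of 14 tested genes for processing, regulation and costimulation, 2 rose in F/M and 2 in Cb, and in both regions they were Ctss and Cd86, while 12 were not called. Ctss, the cathepsin that trims the invariant chain and which microglia also transcribe, had 70.5, 65.3 and 65.9 CPM in F/M controls and 122, 128 and 116 in Tpp1-/- mice (log2 fold change 0.86, adjusted p = 0.0223). In Cb it had 37.3, 37.0 and 27.97 CPM against 117, 73.6 and 86.4 (1.44, adjusted p = 0.000219). Cd86, which gives T cells their second signal, had 2.24, 1.43 and 2.07 CPM against 4.56, 4.49 and 3.498 in F/M (1.11, adjusted p = 0.0363) and 1.02, 1.10 and 0.911 against 2.11, 1.905 and 2.49 in Cb (1.09, adjusted p = 0.0414). Every Tpp1-/- library exceeded every control library for both genes in both regions. In the same libraries the summed level of 12 microglial markers was 150 to 190 CPM in Cb controls and 277 to 385 in Tpp1-/- mice, and 456 to 480 against 543 to 597 in F/M, and its part was not tested.

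The peptide loaders H2-DMa and H2-DMb1 and their inhibitor H2-Ob were positive in both regions at 3 months, but 0 of 3 was called. At an unadjusted p under 0.05 there was 1 in F/M (H2-Ob) and 2 in Cb (H2-DMa and H2-Ob), of which H2-Ob alone passed in Cb without Cb Tpp1-/- replicate 1. Among the genes of the pathway of interferon gamma, the usual inducer of Ciita, 1 of 9 rose in each region, in Cb Irf8 (1.61, adjusted p = 0.000375). Irf8, which myeloid cells transcribe without interferon too, had 1.44, 1.42 and 1.18 CPM in Cb controls and 4.67, 3.56 and 4.18 in Tpp1-/- mice. Ifng itself had 3 counts or fewer in every library. March1, a ligase that removes class II from the surface, was the only gene of the pathway lists called at 2 months, with 6.84, 10.4 and 7.54 CPM in Cb controls and 5.20, 4.68 and 6.37 in Tpp1-/- mice (-0.64, adjusted p = 0.0859).

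**Figure D3:**
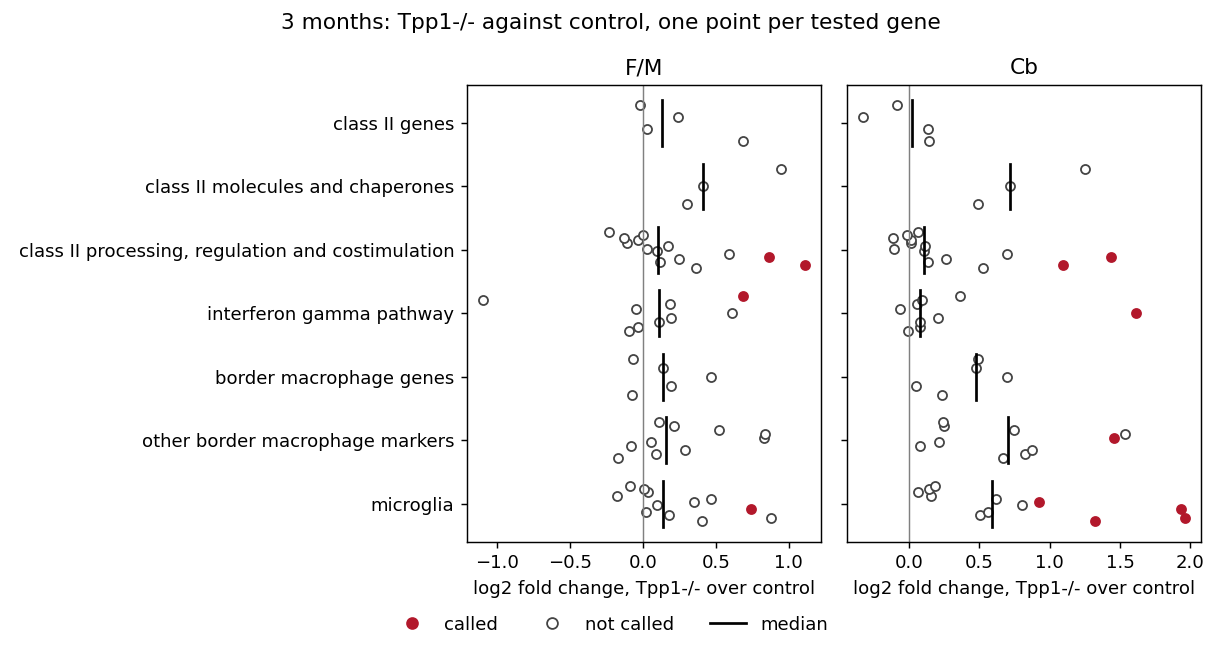
Log2 fold change of Tpp1-/- over control at 3 months (horizontal axis) in F/M and Cb for the tested genes of each list (rows), with calls filled in red and a bar at the median. None of the 9 tested members is called, while Ctss and Cd86 are called in both regions. In Cb 4 microglial genes and 1 of the other border macrophage markers, Ms4a6c, are called.

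Microglia are the resident macrophages of the brain tissue. Of 12 microglial markers 4 rose in Cb (among them Fcrls, C1qa and Aif1) and 1 in F/M (Fcrls), all 12 were positive in Cb and 10 in F/M at 3 months, and none was at 0. Itgax, a gene of dendritic cells that activated microglia also transcribe, rose in both regions, with 0.186, 0.183 and 0.182 CPM in Cb controls against 4.83, 3.68 and 4.60 (adjusted p = 5.66e-06), and 0.153, 0.124 and 0.443 in F/M controls against 5.96, 4.92 and 4.22 (adjusted p = 1.6e-05). The controls rest on 2 to 9 counts, so no fold is given. The part of microglia in the values of the 10 genes was not tested. Of the dendritic cell list, Clec9a and Xcr1 had 3 counts or fewer in every library, as did Cd3g and Cd8a of the T cell list. Over 10 further markers of border macrophages, 1 was called in Cb, Ms4a6c, with 0.9745, 0.55 and 0.547 CPM in controls and 1.915, 1.905 and 1.88 in Tpp1-/- mice (1.45, adjusted p = 0.0338). All 10 were positive in Cb, with a median log2 fold change of 0.70, and 8 in F/M, with a median of 0.16, and 0 were called in F/M.

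The second question was where in the brain these genes were expressed. In controls the median class II gene differed little between Cb and F/M, while microglial markers were far lower in Cb. All 12 microglial markers were called lower in Cb at each age, with median log2 differences of -1.57, -1.61 and -1.62 (Cb over F/M) at 1, 2 and 3 months. Over the 9 tested members the medians were -0.32, -0.12 and -0.13, and over the 4 class II genes -0.22, -0.10 and 0.17. Of the 9 genes, 2 were called at 1 month, 0 at 2 months and 3 at 3 months, where 36.9%, 39.3% and 37.7% of all tested genes were called. At an unadjusted p under 0.05 there were 3, 0 and 4 of 9 by order of age, beside 58.0%, 67.6% and 56.6% of all tested genes. At 2 months DESeq2 and limma-voom also called 0.

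The border macrophage genes accounted for 4 of the 5 calls, all lower in Cb. Mrc1 at 3 months, with the 3.53 to 4.14 CPM in Cb controls given above and 6.34 to 6.57 in F/M, was 0.589-fold in Cb (log2 difference -0.76 ± 0.14, adjusted p = 0.000379). Lyve1 at 3 months was 0.459 to 0.789 CPM in Cb and 1.17 to 1.18 in F/M (-0.83 ± 0.30, adjusted p = 0.0336). H2-Ab1 went the other way, with 1.62, 1.79 and 2.51 CPM in Cb and 1.07, 1.06 and 1.28 in F/M (0.79 ± 0.25, adjusted p = 0.0181). The libraries of the regions did not overlap for these 3 genes and for Cd163 (-0.47 ± 0.22, adjusted p = 0.0866, under the fold minimum), 4 of 9 beside 63.6% of all tested genes. Without Cb control replicate 2 Lyve1 was not called, and without Cb control replicate 3, which had the highest H2-Ab1, H2-Ab1 was not called.

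At 1 month Lyve1 and F13a1 were called lower in Cb. Lyve1 levels were 1.44, 2.73 and 2.78 CPM in F/M, against 0.729, 1.49 and 1.54 for Cb (-0.90 ± 0.40, adjusted p = 0.0699), and F13a1 had 3.55, 4.19 and 6.09 against 2.63, 3.56 and 2.99 (-0.60 ± 0.23, adjusted p = 0.0417). The regions overlapped for both genes, and 0 of 9 genes stood apart at 1 and at 2 months, beside 65.9% and 67.6% of all tested genes. With the replicate number as a block, which the correlation of the libraries allows at this age, 1 gene was called, Lyve1 (-0.89, adjusted p = 0.00566), and F13a1 fell just under the fold minimum (-0.58, adjusted p = 0.0255). Leaving out Cb control replicate 1 ended both calls, leaving out F/M control replicate 3, the Tpp1+/- library, also ended both, and leaving out F/M control replicate 2 ended that of Lyve1. Without F/M control replicate 1, Cd163 was also called lower (-0.76, adjusted p = 0.0963).

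Ciita, the master regulator, was near the limit of detection. At 1 month its counts were 2, 1 and 1 in F/M controls and 20, 6 and 6 in Cb controls, and 1, 3 and 1 against 7, 4 and 12 in Tpp1-/- mice. Every Cb library was above every F/M library, yet Ciita failed the filter on low counts. With all F/M libraries at or under the 3 counts taken as the limit of detection, neither a fold nor a test is given. At 2 months the counts were 0, 0 and 3 in F/M controls and 2, 3 and 3 in Cb controls, at or under that limit. At 3 months they were 5, 3 and 5 against 10, 2 and 12, with overlap. Among the H2 genes at 1 month, H2-Aa had log2 differences of -0.32 ± 0.31, H2-Ab1 of -0.18 ± 0.40 and H2-Eb1 of -0.20 ± 0.33.

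**Figure D4:**
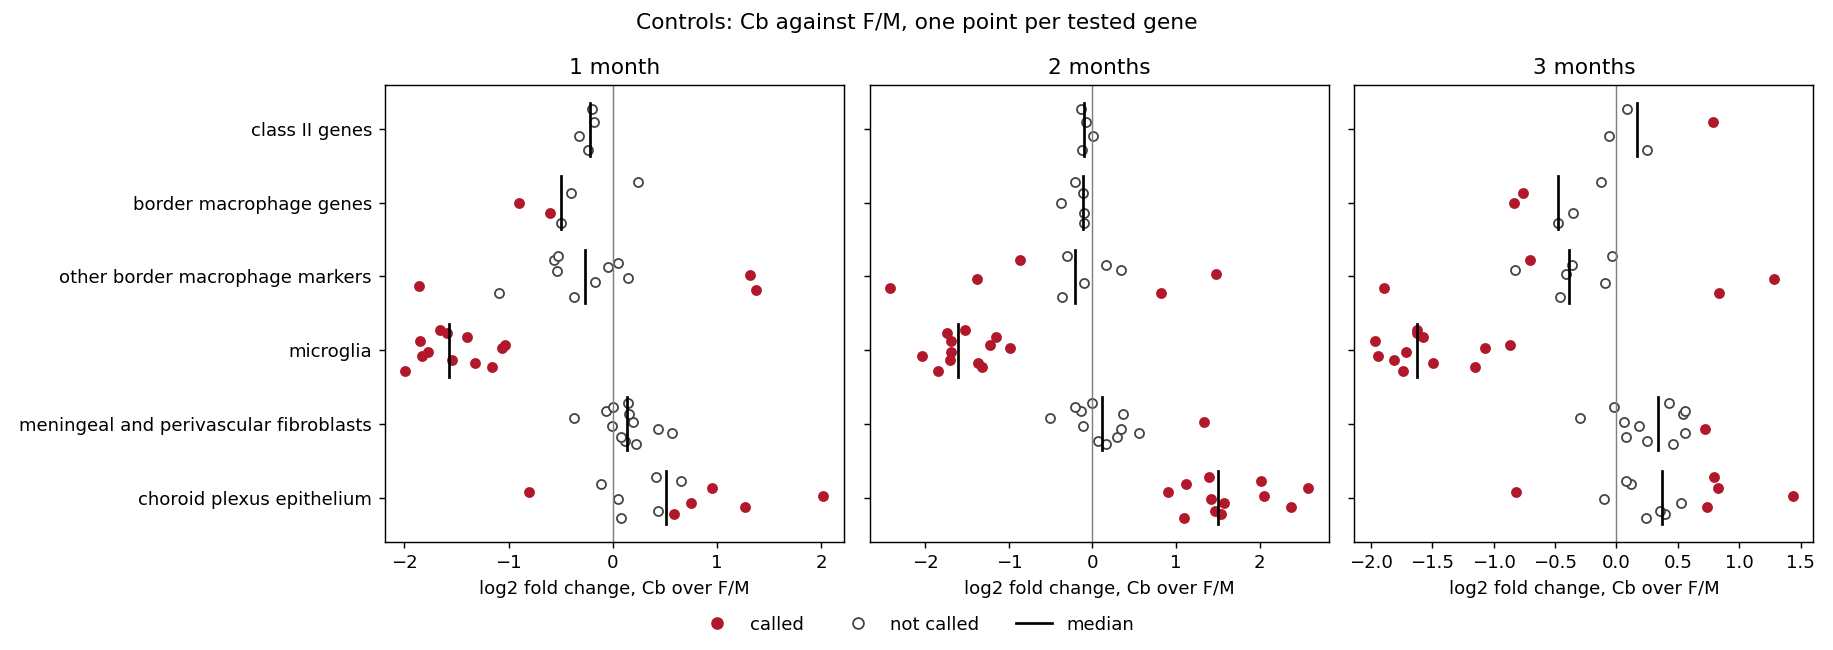
Log2 difference of Cb over F/M in controls (horizontal axis, with its own range in each panel) at 1, 2 and 3 months for the tested genes of each list (rows), with calls filled in red and a bar at the median. All 12 microglial markers are called lower in Cb at each age, while the class II genes lie near 0, apart from H2-Ab1 at 3 months.

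Other cell lists gave the regions different weights. The peptide loaders H2-DMa and H2-DMb1 were called lower in Cb at each age, 2 of 2 tested genes of their list at 1 month and 2 of 3 at 2 and 3 months, with list medians of -1.17, -0.80 and -0.77. H2-DMa at 3 months had 2.78, 2.52 and 2.51 CPM against 7.19, 7.15 and 7.79 in F/M (-1.50, adjusted p = 4.35e-05). Meningeal and perivascular fibroblast markers had medians of 0.13, 0.12 and 0.34 in Cb over F/M, with 0, 1 and 1 of 12 called. Choroid plexus markers were called higher in Cb for 5, 12 and 4 of 12 genes and lower for 1, 0 and 1, and their summed level was 1006 to 1304 CPM in Cb and 251 to 641 in F/M at 2 months. The part of these tissues in the values of the 10 genes was not tested.

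Across ages the groups differ in annotation, those of 2 months also in strand setting and those of 3 months in sex by marker genes, so levels are given side by side with no test. Mean Mrc1 in controls was 9.37 ± 1.28, 6.19 ± 0.515 and 6.47 ± 0.12 CPM in F/M at 1, 2 and 3 months and 7.14 ± 0.972, 5.72 ± 0.544 and 3.81 ± 0.31 in Cb. Mean Lyve1 was 2.32 ± 0.759, 1.51 ± 0.411 and 1.18 ± 0.00567 CPM in F/M, against 1.25 ± 0.455, 1.16 ± 0.241 and 0.659 ± 0.176 in Cb. Mean Cd163 did not fall steadily, with 3.27 ± 1.20, 2.63 ± 0.518 and 2.96 ± 0.189 CPM in F/M and 2.34 ± 0.911, 2.41 ± 0.547 and 2.13 ± 0.131 in Cb. In controls the class II chains had their lowest means at 1 month. Mean H2-Aa was 1.62 ± 0.584, 1.74 ± 0.257 and 2.41 ± 0.149 CPM in F/M, against 1.32 ± 0.358, 1.76 ± 0.247 and 2.31 ± 0.426 in Cb. The F/M means of H2-Ab1 (1.01 ± 0.395, 1.19 ± 0.222 and 1.14 ± 0.126) and H2-Eb1 (1.07 ± 0.205, 1.99 ± 0.41 and 1.76 ± 0.357) were highest at 2 months. So was that of Cd74 (2.31 ± 0.383, 3.78 ± 0.335 and 3.14 ± 0.739). In Cb the means of these genes were highest at 3 months.

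Within groups, the median correlation of the genes was higher inside each set than across the sets. Over the deviations of 36 libraries from their group means, pairs among H2-Aa, H2-Ab1, H2-Eb1 and Cd74 had a median Pearson's r of 0.34 (6 pairs, from 0.11 to 0.57), and pairs among the border macrophage genes a median of 0.37 (10 pairs, from -0.16 to 0.69). The 20 pairs across the 2 sets had a median of 0.0022 and ran from -0.35 to 0.25, so single pairs overlapped with those inside the sets. Against the means of other lists the 4 class II genes had values of 0.32 to 0.60 with the genes for processing, regulation and costimulation. They had 0.01 to 0.27 with interferon gamma pathway genes and 0.0013 to 0.27 with the further border macrophage markers. Values were 0.26 to 0.58 with red blood cell, 0.25 to 0.47 with fibroblast and 0.28 to 0.51 with monocyte and neutrophil genes. They were 0.18 to 0.54 with choroid plexus, 0.04 to 0.58 with T cell, 0.05 to 0.36 with microglial and -0.17 to 0.07 with lymphatic endothelial genes. Values like those inside the set thus also occurred with other cells' genes. The border macrophage genes had values of only -0.19 to 0.14 with the further border macrophage markers. With other cells' genes they had -0.40 to 0.35 (monocyte and neutrophil), -0.28 to 0.39 (fibroblast) and -0.08 to 0.36 (choroid plexus). The values were -0.42 to 0.19 for T cell, -0.37 to 0.25 for microglial, -0.06 to 0.16 for red blood cell and -0.14 to 0.22 for lymphatic endothelial genes. Between members the highest value was 0.69, for Lyve1 and Cd163. Pf4 was the exception, at -0.11 with Mrc1 and with Lyve1 and -0.16 with Cd163. Libraries share depth and dissection, and with counts this low these values are a description only.

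**Figure D5:**
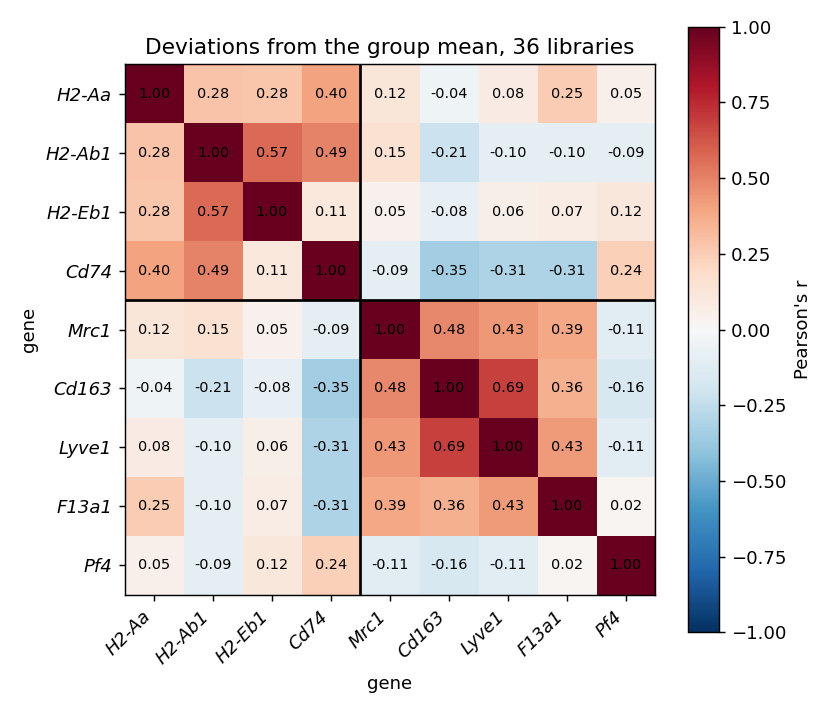
Pearson's r between genes (both axes) over the deviations of log2 CPM from the group mean in 36 libraries, in red for positive and blue for negative values. Lines divide class II genes from border macrophage genes, and the median is 0.34 and 0.37 inside the sets and 0.0022 across them, with Pf4 at or below 0.0158 with the other border macrophage genes.

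The genes whose deviations were most like the mean of the 4 class II genes were Smim4 (r = 0.76), Ldoc1 (0.75), Lgals1 (0.74), S100b (0.73) and Gsta4 (0.72), among 16713 genes and over 36 libraries. Those most like the mean of the 5 border macrophage genes were Rapgef3 (0.77), Atp10a (0.75), Gm26747 (0.75), Ada (0.74) and Fkbp5 (0.73). The ranking was not tested.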

How the data were processed

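Poly(A) RNA of F/M and Cb from 3 mice per group was sequenced with a stranded kit by the authors. The deposited values are raw read counts per gene. Per the file headers the authors made these counts with featureCounts 1.6.3 on GENCODE M21 at 1 month (strand setting 1), 1.6.2 on M16 at 2 months (setting 2) and 1.6.2 on M18 at 3 months (setting 1), all on GRCm38, and the submitters' processing notes name STAR 2.5.2b and mm10. The command in the headers asks for fractional counts of multi-mapped reads, although all values are integers. Reads shared by similar class II genes may be split uncertainly.

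Groups came from the labels. Each age was fitted by itself on 12 libraries with edgeR 4.0.16 in R 4.3.3 (TMM scaling, filterByExpr, two-sided quasi-likelihood F test, Benjamini-Hochberg adjustment over 17916, 17229 and 17224 genes). Calls needed a 1.5-fold change or more and an adjusted p below 0.1, and differences between effects the latter alone. A model of 36 libraries over 18322 genes of the annotations' common set gave differences between ages. CPM are TMM-scaled, their errors are the SD of 3 libraries, and log2 fold changes carry the SE. Nothing says that libraries of different replicate numbers were processed apart, so p-values measure the spread between these samples. Deviations were taken on log2(CPM + 0.5). Totals set the precision: 3 counts was taken as the limit of detection, and intervals cover the spread between libraries in the model.

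At 1 month, libraries that share a number across regions deviated together (correlation over genes 0.170 to 0.260 in controls and 0.101 to 0.198 in Tpp1-/- mice), so there the number may pair the regions, from the data and not from the labels. The chosen fit did not use this pairing and treated the regions as independent. The fit with the replicate block, which used it, was an alternative. The members and lists were chosen with earlier results of these data known. All 10 members are named, at most 4 genes of a list by lowest p, markers beside a result, and the 5 genes most like each set. Some genes of the lists are not reported here. Alternatives were DESeq2 1.42.0, limma-voom with limma 3.58.1, RLE size factors, no filter, no fold minimum, the 6 libraries alone, a replicate block, the sex label and each library left out. The fit was tested on simulated counts. Tables were made with Python 3.11.15, numpy 2.4.6 and pandas 2.3.3, and figures with matplotlib 3.10.9.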

Additional observations from a re-analysis of the deposited data

How the results depend on the processing

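Calls of Tpp1-/- against control among these genes were 0 in each comparison and setting but for 3: with no fold-change minimum 1 gene was called in F/M at 2 months (Mrc1), with no filter on low counts 1 in Cb at 2 months (H2-Eb1), and with only the 6 libraries compared 1 in F/M at 3 months (Cd74). For Cb against F/M in controls at 1 month, 2 genes were called in the chosen fit, 1 with the replicate block, and 0 to 4 with one library left out, 0 to 3 of them other than Ciita, which passes the filter there only through Cb and for which no test is read. At 3 months the count was 2 to 4 in every setting, and at 2 months it was 0. In no other comparison did every same-numbered pair correlate above 0.1 (from -0.147 to 0.310 between genotypes and from -0.0613 to 0.142 between regions at 2 and 3 months). Between regions of Tpp1-/- mice at 2 months each library correlated best with its own number (0.0935 to 0.142), a hint from the data only. The replicate block changed no other count. The sex label was not used at 2 months, when all libraries carry one label, and elsewhere it goes against Xist and Ddx3y. DESeq2, limma-voom, no fold minimum and each library left out were not run for the differences between ages. Of the single-gene Tpp1-/- estimates, 353 under other settings and 595 with one library left out kept their sign and side of the threshold, 3 and 53 uncalled ones changed sign, and 2 passed the threshold, H2-Eb1 and Cd74 as above. At 0 to 239 counts per library, depth limits every value given for these genes, and for Ciita most.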

Other observations

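Genes of other blood cells changed in Cb at 2 months, when none of the 10 genes was called. S100a8 and S100a9, calcium-binding proteins of neutrophils, fell in Tpp1-/- mice, from 2.19, 3.48 and 2.40 CPM of S100a8 to 0.509, 1.45 and 0.875 (log2 fold change -1.54, adjusted p = 0.0225) and from 3.22, 5.52 and 3.99 CPM of S100a9 to 0.837, 2.32 and 1.62 (-1.46, adjusted p = 0.00527). Chil3, a chitinase-like protein of myeloid cells, also fell (-2.52, adjusted p = 0.0524), which rests on low values of 0.449 to 0.633 CPM in controls and 0 to 0.182 in Tpp1-/- mice. At 3 months a single Tpp1-/- Cb library, replicate 1, had 6.34 CPM of S100a8 and 6.94 of S100a9, whereas the other two had 0.296 and 0.61, and 1.40 and 1.31. With all libraries neither gene was called there (0.34, adjusted p = 0.986 for S100a8 and 0.50, adjusted p = 0.958 for S100a9), and without that library S100a8 was called lower (-2.10, adjusted p = 0.0526) and S100a9 was not called (-0.75, adjusted p = 0.22).

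Choroid plexus markers rose at 2 months in both regions, 7 of 12 in F/M and 6 of 12 in Cb. Slc4a5, a bicarbonate transporter of this epithelium, rose in F/M by 1.43 on the log2 scale (adjusted p = 0.00202), and its Cb estimate was 0.78 (adjusted p = 0.000997). Prlr, the prolactin receptor, rose by 1.13 (adjusted p = 0.00202) in F/M, while for Cb the value was 0.90 (adjusted p = 0.000563). Of the genes at the borders Igf2, made by choroid plexus and meninges, rose in F/M (1.11, adjusted p = 0.0699), as the only one of 12 fibroblast markers called, of which 4 were positive and the median was -0.07.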
